A study of Homo sapiens with 4 samples.

Results

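The citric acid cycle enzymes described here are citrate synthase (CS), the cytosolic aconitase (ACO1), the oxoglutarate dehydrogenase complex (OGDH, DLST and DLD), the subunits of succinyl-CoA synthetase (SUCLG1, SUCLA2 and SUCLG2) and fumarase (FH). They were chosen by name, as the enzymes of the cycle other than the isocitrate and malate dehydrogenases. Of these 9 genes, 8 were measured, each by 1 transcript cluster (the probes that cover 1 transcript locus) with exactly 1 gene symbol in the array annotation, out of 21214 named clusters. FH was not analysed here. AGS cells, an established line of human gastric adenocarcinoma, were exposed for 36 h to 0.01% ornithogalum, a homeopathic formulation, or to ethanol as vehicle, and total RNA was hybridised to Affymetrix Human Gene 1.0 ST arrays. Each group had 2 arrays, which the labels call biological replicates without saying whether the cultures were grown separately, so the p-values speak only of the spread among these arrays, which may be technical. The ethanol content of the wells is not stated in the labels. In bulk RNA, fewer cells of a kind and less RNA per cell cannot be told apart.

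The citric acid cycle oxidises acetyl-CoA in the mitochondrial matrix and passes the electrons to the respiratory chain as NADH and reduced flavin. Citrate synthase joins acetyl-CoA to oxaloacetate, and the oxoglutarate dehydrogenase complex and succinyl-CoA synthetase carry the carbon from oxoglutarate to succinate, the latter making ATP or GTP directly. Several of the enzymes have a further role outside the cycle. DLD serves other dehydrogenase complexes as well, and ACO1 without its iron-sulphur cluster binds mRNAs of iron metabolism.

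SUCLA2, the subunit that makes succinyl-CoA synthetase form ATP, was higher in ornithogalum-treated cells by 2.21-fold, and DLD, the lipoamide dehydrogenase, was lower by 1.84-fold. The other 6 measured enzymes did not pass the test. Their differences from vehicle ran from -0.29 for CS to 0.24 for DLST on the log2 scale. A difference here is the ornithogalum mean minus the vehicle mean of the log2 expression values, tested with limma over all named clusters, two-sided, and called at a Benjamini-Hochberg adjusted p under 0.05. Of the 8 measured enzymes 1 was called higher and 1 lower, against a background of 19.2% of all clusters called in either direction, 6.57% higher and 12.6% lower. At 2 of 8 the enzymes' share of calls lay near that background. All 8 were, however, among the 10607 clusters with a mean value at or above the median. When these brighter clusters were fitted alone, 45.6% of them were called, and still 1 enzyme higher and 1 lower. The median difference of the enzymes was -0.012, beside 0.035 over all clusters, and 4 of the 8 differences were negative. Over all clusters lower calls were in excess, 2683 against 1393 higher. They stayed so after quantile scaling (2308 against 1817) and cyclic loess (2629 against 1738), but not after median centring. Centring each array on its median moved the median of all differences to 0.20 and gave 1898 lower and 2238 higher. That shift also moved the median of the enzymes to 0.15.

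**Figure D1:**
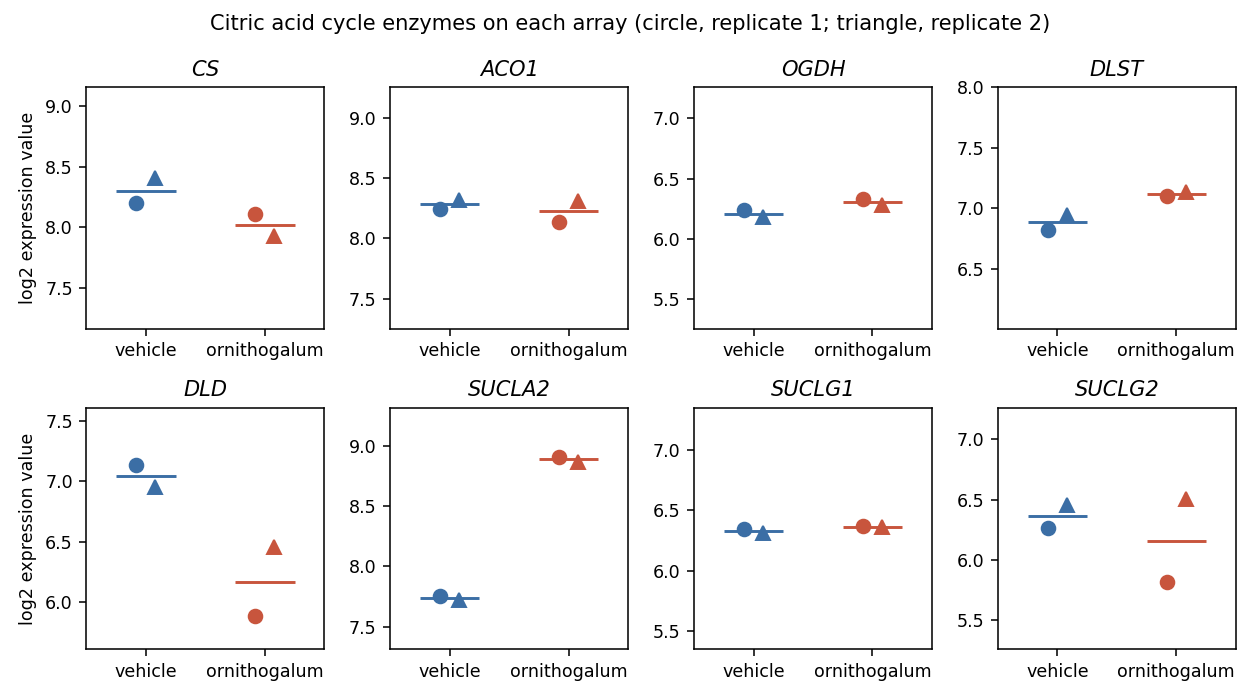
Log2 expression value of the 8 measured enzymes on each vehicle (blue) and ornithogalum (red) array, with horizontal bars at the group means and the same span of 2 log2 units on every y axis. SUCLA2 lies near 8.9 on both ornithogalum arrays and near 7.7 on both vehicle arrays, DLD is lower on both ornithogalum arrays, and in ACO1 and SUCLG2 the groups overlap.

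Markers of the labelled cell type were high on the arrays. The mean log2 value over 9 gastric epithelial markers was 8.30 to 8.39 after ornithogalum and 8.82 on both vehicle arrays. Of the 9 markers, 3 (MUC1, KRT19 and CLDN7) were called lower. Over all 21214 named clusters 12.6% were called lower and 6.57% higher, and 7160 had an unadjusted p under 0.05. After median centring 2 of the 9 markers were lower, and after quantile scaling or cyclic loess 4. Fibroblast and endothelial marker means lay between 3.03 and 3.79 on every array, and 0 of these 11 markers were called (0 also at an unadjusted p under 0.05). The 5 leukocyte markers averaged 4.77 to 4.89, with 0 called (0 at an unadjusted p under 0.05). That mean includes LYZ at 11.7 to 11.8, a lysozyme gene that gastric epithelium also expresses, while PTPRC, which marks leukocytes, lay at 1.44 to 1.74. The ornithogalum arrays differed from each other more than the vehicle arrays did, with a median gap per cluster of 0.19 against 0.11. They also had a narrower spread of values, with an interquartile range of 2.44 and 2.56 against 2.71 and 2.72. The part of the lower epithelial markers in the results on the enzymes was not tested, and enzymes whose call or direction changed without an array are given with and without it.

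Succinyl-CoA synthetase pairs the shared subunit SUCLG1 with either SUCLA2, which gives the enzyme that forms ATP, or SUCLG2, which gives the enzyme that forms GTP. SUCLA2 measured 8.91 and 8.87 after ornithogalum and 7.76 and 7.72 after vehicle. Both treated arrays lay more than 1 log2 unit above both vehicle arrays, and the arrays within each group were nearly equal. The means were 8.89 ± 0.028 and 7.74 ± 0.022 (SD, n = 2 per group), and the difference was 1.15 (SE 0.11, 95% interval 0.86 to 1.43, limma adjusted p = 0.0047). SUCLA2 was higher in 2 of 2 ornithogalum arrays. The difference was larger in size than that of 94.7% of all named clusters. Its size was 1.16 without vehicle replicate 1 and 1.13 without vehicle replicate 2, but with 1 vehicle array left limma called 0 of the 21214 clusters, and the adjusted p for SUCLA2 was 0.074 and 0.077. In these fits the lone vehicle array is assumed to vary like the ornithogalum pair, and 4192 and 3986 clusters had an unadjusted p under 0.05.

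The shared subunit SUCLG1 measured 6.37 and 6.36 after ornithogalum and 6.35 and 6.32 after vehicle. These 4 values spanned 0.057 log2 units, and the difference was 0.034 (95% interval -0.25 to 0.31, adjusted p = 0.86). SUCLG2, the alternative partner, measured 5.81 and 6.50 after ornithogalum and 6.26 and 6.46 after vehicle. The groups overlapped, with 1 ornithogalum array below and 1 above both vehicle arrays. The mean was 6.16 ± 0.49 with ornithogalum and 6.36 ± 0.14 with vehicle (SD, n = 2 per group). The difference of -0.20 had a wide 95% interval, -0.84 to 0.44 (adjusted p = 0.61), which takes in a fall of 1.79-fold and a rise of 1.35-fold. Without ornithogalum replicate 1 the difference was 0.14, and without ornithogalum replicate 2 it was -0.55 (adjusted p = 0.045), so the sign and the call for SUCLG2 rested on which treated array was kept.

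Within each array, the log2 value of SUCLA2 minus that of SUCLG2 was 3.09 and 2.36 with ornithogalum and 1.49 and 1.27 with vehicle. The level of this ratio has no meaning of its own, since the probes differ, but its change between groups compares the responses of these alternative subunits. It rose on both treated arrays, and the groups did not overlap. The change was 1.35 on the log2 scale, or 2.55-fold, and the exact permutation test gave a two-sided p = 0.333, the smallest that 2 arrays against 2 allow. Leaving out 1 array at a time, the change ran from 0.99 to 1.71. SUCLA2 minus SUCLG1, a ratio chosen after the values were seen and not tested, was 2.53 and 2.51 with ornithogalum and 1.41 on both vehicle arrays.

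The promoters of SUCLA2 and SUCLG2 are shown because these alternative subunits of 1 enzyme had different values under treatment. The windows are the 250 bases before the annotated gene start, read 5′ to 3′ on the gene's strand from RefSeq (GRCh38.p14), at chr13:48001274-48001523 (minus strand) and chr3:67654613-67654862 (minus strand). Capitals mark the GC box GGGCGG and the CCAAT box CCAAT, searched on both strands.
SUCLA2: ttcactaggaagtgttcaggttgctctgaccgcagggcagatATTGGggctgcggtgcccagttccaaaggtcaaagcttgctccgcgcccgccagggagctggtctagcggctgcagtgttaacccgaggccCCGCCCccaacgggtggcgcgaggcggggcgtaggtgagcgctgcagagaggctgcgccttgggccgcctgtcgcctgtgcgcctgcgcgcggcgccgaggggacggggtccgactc
SUCLG2: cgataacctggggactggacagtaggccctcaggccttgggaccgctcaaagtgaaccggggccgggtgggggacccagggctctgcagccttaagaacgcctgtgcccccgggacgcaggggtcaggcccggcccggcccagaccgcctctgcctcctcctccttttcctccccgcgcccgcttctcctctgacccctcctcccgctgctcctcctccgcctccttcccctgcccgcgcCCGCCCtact
The SUCLA2 window holds 1 GC box, 117 bases before the start, and 1 CCAAT box, 208 bases before it, both on the opposite strand. The SUCLG2 window holds 1 GC box, 10 bases before the start. A GC box is present in 42.6% and a CCAAT box in 32% of 35116 RefSeq promoter windows of this length. The G and C content of the windows was 69.2% for SUCLA2 and 71.2% for SUCLG2. The motifs CACGTG (the E-box) and GCATGCGC (the core of the site of NRF1, a regulator of nuclear genes for mitochondria) were searched as well, and their letters are in neither window. A match describes letters and no binding was measured.

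The oxoglutarate dehydrogenase complex has 3 component enzymes. OGDH decarboxylates oxoglutarate, DLST carries the succinyl group on a lipoyl arm, and DLD reoxidises that arm. DLD measured 5.88 and 6.45 after ornithogalum and 7.14 and 6.95 after vehicle. Both treated arrays lay below both vehicle arrays, but they were 0.57 log2 units apart from each other. The mean went from 7.05 ± 0.13 with vehicle to 6.17 ± 0.40 with ornithogalum (SD, n = 2 per group), a difference of -0.88 (SE 0.22, 95% interval -1.43 to -0.32, limma adjusted p = 0.0497, lower in 2 of 2 arrays). This p stood just inside the threshold. Over the alternative settings it ran from 0.0086 to 0.26, and DLD was called in 9 of 13 of them. The settings without the call included those without vehicle replicate 1 (difference -0.79, adjusted p = 0.26), without vehicle replicate 2 (-0.97, adjusted p = 0.20) and the test of all 33297 clusters of the table (adjusted p = 0.11). The difference was -0.59 without ornithogalum replicate 1 and -1.16 without ornithogalum replicate 2, and it was negative in all 13 alternative settings.

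OGDH, the first enzyme of the complex, measured 6.33 and 6.28 after ornithogalum and 6.24 and 6.18 after vehicle. The treated arrays were slightly above, by 0.099 (95% interval -0.19 to 0.38, adjusted p = 0.58). DLST, the succinyltransferase, measured 7.10 and 7.14 after ornithogalum and 6.82 and 6.95 after vehicle. The groups of DLST did not overlap, and the difference of 0.24 (95% interval -0.062 to 0.53) did not pass (adjusted p = 0.23). OGDH minus DLST within an array was -0.78 and -0.85 with ornithogalum and -0.59 and -0.77 with vehicle, a change of -0.14 (exact permutation test, two-sided p = 0.333, the smallest possible). That change was -0.045 without vehicle replicate 1, -0.23 without vehicle replicate 2 and -0.050 after quantile scaling. DLD minus DLST, chosen after the values were seen and not tested, was -1.22 and -0.69 with ornithogalum and 0.32 and 0.0081 with vehicle. The ratio of DLD to DLST was thus lower on both treated arrays than on either vehicle array. For OGDH and DLST the intervals of the difference take in rises of up to 1.30-fold and 1.45-fold, respectively.

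The DLD promoter is shown because it was the enzyme called lower. RefSeq (GRCh38.p14) lists 2 starts for DLD, and the window before the downstream one, chr7:107890933-107891182 (plus strand), follows, with the CCAAT box CCAAT and the NRF1 core GCATGCGC in capitals.
DLD: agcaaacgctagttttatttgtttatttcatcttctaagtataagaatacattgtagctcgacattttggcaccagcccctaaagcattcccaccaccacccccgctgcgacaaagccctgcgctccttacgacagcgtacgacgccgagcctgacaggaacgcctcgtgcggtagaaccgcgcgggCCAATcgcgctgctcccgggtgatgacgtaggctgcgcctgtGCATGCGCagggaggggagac
The NRF1 core lies 21 bases before this start and the CCAAT box 63 bases before it. The core is present in 2.63% of all windows of this length, and among the 7 measured enzymes with a promoter entry the DLD window alone holds it. The window before the upstream DLD start holds none of the 4 motifs. GC boxes number 5 before CS, 6 before ACO1, 2 before DLST, 1 before SUCLA2 and SUCLG2, and 0 before SUCLG1 and either DLD start. No factor was measured at these sites.

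CS, which opens the cycle, measured 8.11 and 7.93 after ornithogalum and 8.20 and 8.40 after vehicle. Both treated arrays were below both vehicle arrays, with a difference of -0.29 (SE 0.14, 95% interval -0.64 to 0.069) that did not pass (adjusted p = 0.22). It was called in 0 of 13 alternative settings. ACO1 measured 8.14 and 8.31 after ornithogalum and 8.24 and 8.32 after vehicle. The groups overlapped, and the difference of -0.058 (95% interval -0.38 to 0.26, adjusted p = 0.78) became 0.10 after median centring and 0.028 without ornithogalum replicate 1.

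**Figure D2:**
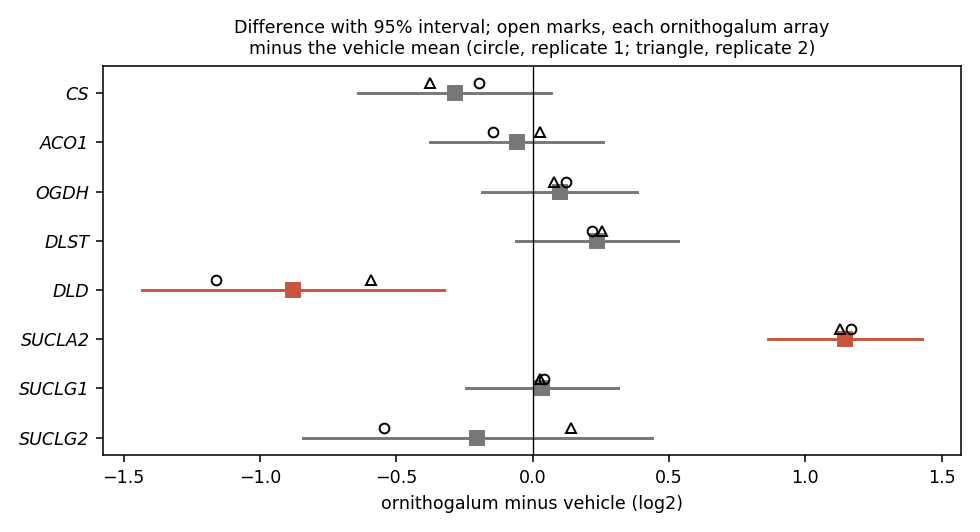
Ornithogalum minus vehicle difference (log2) of each measured enzyme, as squares with limma's 95% interval; red marks an adjusted p under 0.05, and open marks show each ornithogalum array minus the vehicle mean. The intervals of SUCLA2 (0.86 to 1.43) and DLD (-1.43 to -0.32) do not include 0, and the open marks of SUCLG2 lie on either side of 0.

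Among the 8 enzymes, the treated arrays lay above both vehicle arrays in 4 (OGDH, DLST, SUCLA2 and SUCLG1) and below both in 2 (CS and DLD). Over all named clusters the corresponding shares were 32.0% and 30.2%. The gap between the ornithogalum arrays was largest in SUCLG2 (0.69) and DLD (0.57) and at most 0.18 in the other 6. In both of these genes ornithogalum replicate 1 had the lower value. The largest gap between the vehicle arrays was 0.20, in CS.

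**Figure D3:**
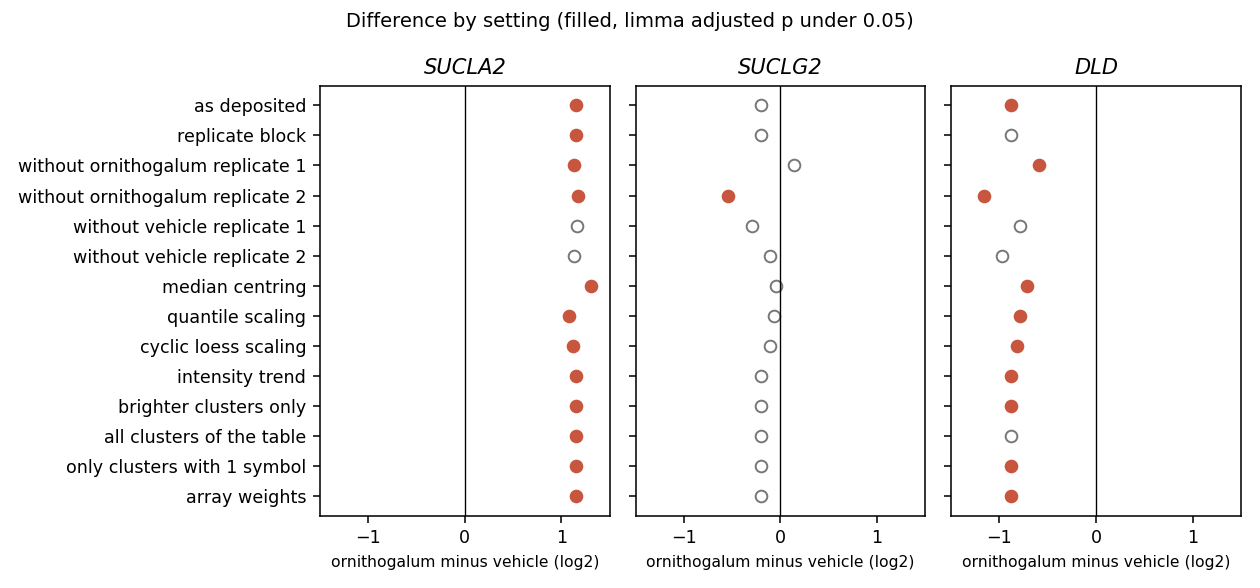
Ornithogalum minus vehicle difference (log2, x axis) of SUCLA2, SUCLG2 and DLD in the deposited values and in 13 alternative settings (rows); filled points have a limma adjusted p under 0.05. SUCLA2 stays between 1.08 and 1.31 and DLD between -1.16 and -0.59, while SUCLG2 crosses 0 when ornithogalum replicate 1 is left out.

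Isocitrate and malate dehydrogenases act at neighbouring steps of the cycle, and some forms act in the cytosol. Of 7 isocitrate and malate dehydrogenase genes measured, 4 fell and 0 rose, with a median difference of -0.60, beside -0.012 for the enzymes above. For this and the next lists, the background over all clusters was 12.6% called lower and 6.57% higher. IDH1, the cytosolic isocitrate dehydrogenase that makes NADPH, fell 7.71-fold, and the mitochondrial IDH2, which also makes NADPH, 2.75-fold. The cytosolic malate dehydrogenase MDH1 fell 1.57-fold, with limma adjusted p from 0.0034 to 0.032 over these genes. IDH2 measured 4.80 and 5.70 after ornithogalum and 6.70 and 6.72 after vehicle, so its treated arrays lay 0.90 log2 units apart. The subunits of the cycle's own NAD-linked enzyme, named after their values were seen, had differences of -0.15 (IDH3A, adjusted p = 0.42), -0.12 (IDH3B, adjusted p = 0.57) and -0.60 (IDH3G, adjusted p = 0.039). The call for IDH3G was lost after median centring (adjusted p = 0.12). The mitochondrial malate dehydrogenase MDH2 had a difference of 0.28, with both treated arrays above both vehicle arrays, and did not pass (adjusted p = 0.17). Of 6 genes of succinate dehydrogenase and its assembly factors, which use the product of succinyl-CoA synthetase, 2 fell and 0 rose, namely the membrane anchor SDHC (1.85-fold) and SDHAF3 (3.55 and 3.70 after ornithogalum, 4.49 and 4.18 after vehicle), while the catalytic subunit SDHA had a difference of -0.066 (adjusted p = 0.74). Neither SDHC nor SDHAF3 passed after median centring (adjusted p = 0.067 and 0.059), which turned the list's median from -0.069 to 0.090. Each of these genes was read from the brightest cluster annotated to it, and the place of that cluster in the genome was not checked.

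DLD and DLST share cofactors and partners with other complexes, and several of these partners were lower. DLD also serves pyruvate dehydrogenase, branched-chain ketoacid dehydrogenase and the glycine cleavage system, and DLST also works with DHTKD1, the oxoadipate dehydrogenase. The list here leaves out pyruvate dehydrogenase, whose genes are given with the entry of pyruvate below. Of 10 genes of lipoate supply and the other partner complexes, 5 fell and 2 rose, with a median of -0.73. The counts were the same after median centring, quantile scaling and cyclic loess. On the deposited values 12.6% of all clusters were called lower and 6.57% higher. DHTKD1 fell 3.19-fold, from 6.27 ± 0.037 to 4.60 ± 0.26 (SD, n = 2 per group). BCKDHB, of the branched-chain complex, fell 2.85-fold, and LIAS, which makes the lipoyl group, fell from 4.41 and 4.08 to 3.01 and 3.02, with limma adjusted p from 0.0044 to 0.0075 over these 3 genes. The other calls, named after their values were seen, were OGDHL (2.00-fold) and DBT (1.85-fold), lower, and LIPT1 (1.75-fold) and KGD4 (3.54 and 3.60 after ornithogalum, 2.87 and 3.07 after vehicle), higher. The deposited table has no detection calls. SDHAF3 and LIAS, and SLC40A1 below, lay in 1 group near the mean levels of the fibroblast and endothelial markers. KGD4 lay near those levels in both groups, so its higher call compares values at those levels. No fold is given for any of these genes.

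Pyruvate, the source of much of the acetyl-CoA that CS uses, enters through a carrier and the pyruvate dehydrogenase complex. Of 12 genes measured at this entry 3 rose and 4 fell, with a median of -0.43, where 6.57% of all clusters were called higher and 12.6% lower. The kinases that switch the complex off fell in 3 of 4, PDK1 by 2.78-fold, PDK2 by 2.34-fold and PDK3 by 1.93-fold (limma adjusted p from 0.0046 to 0.0070), while PDK4 had a difference of 0.24 (adjusted p = 0.22). The next genes were named after their values were seen. The phosphatase PDP1 that switches the complex on rose 1.89-fold, and the subunit PDHX, which anchors DLD there, rose 1.72-fold. The subunits PDHA1, PDHB and DLAT had differences of -0.54, -0.32 and -0.58. In each, both treated arrays lay below both vehicle arrays, but none passed (limma adjusted p from 0.058 to 0.15). The carrier subunits went opposite ways, MPC2 1.99-fold higher and MPC1 1.65-fold lower. MPC1 did not pass after median centring, quantile scaling or cyclic loess (adjusted p from 0.099 to 0.13).

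ACO1 without its iron-sulphur cluster stabilises the mRNA of the transferrin receptor and blocks translation of ferritin. Of 11 genes measured around this role 2 rose and 3 fell, with a median of -0.26, beside a difference of -0.058 for ACO1 itself. The share of all clusters called was 6.57% higher and 12.6% lower. The transferrin receptor gene TFRC measured 6.93 and 6.97 after ornithogalum and 5.75 and 5.72 after vehicle, 2.32-fold higher. The iron exporter gene SLC40A1 was lower, at 3.30 and 3.59 against 5.66 and 5.65, and NFS1, which supplies sulphur for iron-sulphur clusters, was 2.07-fold lower. The limma adjusted p of these 3 genes ran from 0.0034 to 0.0060. The other calls, named after their values were seen, were FTL, a ferritin subunit (1.38-fold higher), and the iron importer SLC11A2 (1.40-fold lower). SLC11A2 did not pass under any of the 3 other scalings, with adjusted p from 0.091 to 0.15, and FTL did not pass after cyclic loess (adjusted p = 0.066).

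**Figure D4:**
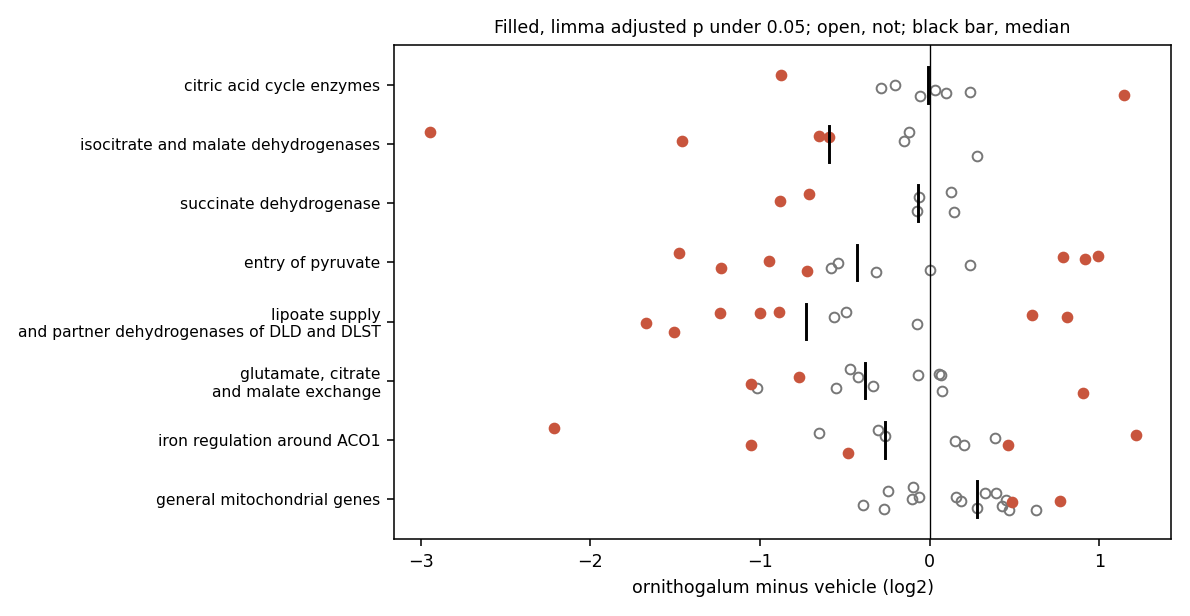
Ornithogalum minus vehicle difference (log2, x axis) of the 8 enzymes and of the measured genes of 7 neighbouring lists (rows, points spread vertically for view); filled points have a limma adjusted p under 0.05 and black bars mark the medians. The enzymes have a median near 0 with SUCLA2 and DLD apart from the rest, while the lipoate list has a median of -0.73 and the isocitrate and malate dehydrogenases -0.60.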

How the data were processed

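Total RNA of AGS cells was measured on 4 Affymetrix Human Gene 1.0 ST arrays, 2 per group, grouped by the sample titles. The deposited values are log2 expression per transcript cluster, and per the submitters' processing notes the authors made them with RMA in version 1.1 of Affymetrix Expression Console, with settings not given in the sources used here. RMA summarises many probes per cluster, so a change in part of a transcript can move a cluster's value. Arrays have no depth, and their number limits the precision.

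Of 33297 clusters, the platform annotation of 2016 gives 19460 exactly 1 symbol, 1754 several and 12083 none. Symbols were updated by gene number from RefSeq for 19429. The 21214 named clusters were fitted together with limma 3.58.1 (R 4.3.3; eBayes without a trend), and two-sided p-values were adjusted over all of them by Benjamini-Hochberg, with a threshold of 0.05. No dim cluster was left out. For lists, the brightest 1-symbol cluster stood for a gene. Other clusters of a list gene were not compared, and the places of the clusters in the genome were not checked. Of 85 list genes 75 were measured, and the rest were not analysed here.

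The enzymes and lists were chosen with earlier results of these data known. The rule for names took all the enzymes and, from each list, up to 3 called genes of smallest p. Within-array ratios were tested by exact permutation, and 1 planned ratio is not reported here. Alternatives were the replicate number as a block, each array left out, 3 other scalings, an intensity trend, brighter clusters, other sets of clusters and array weights. Motifs were searched in the 250 bases before RefSeq starts, for which 8 of the 9 genes had an entry.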

Additional observations from a re-analysis of the deposited data

How the results depend on the processing

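The directions of SUCLA2, DLD, CS, OGDH, DLST and SUCLG1 held in all 13 alternative settings. ACO1 turned from -0.058 to 0.10 after median centring. With 1 array left out in turn, ACO1 ran from -0.14 to 0.028 and SUCLG2 from -0.55 to 0.14, both positive without ornithogalum replicate 1 only. The number of enzymes called lower, 1 on the deposited values, was 0 with the replicate number as a block, where DLD had an adjusted p of 0.056, and 0 when all clusters of the table were tested. Same-numbered arrays did not deviate together (r = -0.059 across clusters). With 2 arrays per group this r is the same for either replicate number, and it cannot show whether same-numbered cultures were handled together. Whether the numbers pair the samples is therefore not known. With 1 array left out in turn, 0 to 2 enzymes were called lower and 0 to 1 higher, 0 to 29 of 75 neighbouring genes lower and 0 to 11 higher, and 0% to 33.3% of all clusters. The zeros came from leaving out either vehicle array, and the highest values from leaving out ornithogalum replicate 2. Against 20 neighbours lower and 10 higher on the deposited values, testing all clusters gave 11 and 6, and an intensity trend called 16 higher. The share of clusters called, 19.2%, became 45.6% among the brighter clusters and 7.94% over the whole table. Median centring gave 15 neighbours lower and 15 higher. The causes of the changes in these counts and shares were not tested. Of the within-array ratios, SUCLA2 minus SUCLG2 (change 1.35) ran from 0.99 to 1.71 and OGDH minus DLST (-0.14) from -0.23 to -0.045 with 1 array left out, and quantile scaling and cyclic loess gave 1.15 and 1.23 for the former and -0.050 and -0.078 for the latter.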

Other observations

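Genes of general mitochondrial function, outside the cycle, had a positive median difference. Of 17 measured 2 rose and 0 fell, with a median log2 difference of 0.28 beside 0.035 over all clusters and -0.012 over the cycle enzymes. The calls over all clusters were 19.2% in either direction, 6.57% higher and 12.6% lower. The coactivator gene PPARGC1A, which promotes mitochondrial biogenesis, was 1.70-fold higher, and TOMM40, the import pore of the outer membrane, 1.40-fold higher (limma adjusted p = 0.020 and 0.044). After median centring 7 rose and 0 fell, and after quantile scaling or cyclic loess 5 rose and 0 fell.

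Genes that move glutamate, citrate and malate into or out of the cycle fell in 2 and rose in 1 of 12 measured, with a median of -0.38. Among all clusters 12.6% were called lower and 6.57% higher. ACLY, which splits exported citrate to acetyl-CoA, was 2.08-fold lower and the dicarboxylate carrier gene SLC25A10 1.70-fold lower. GOT1, the cytosolic aspartate aminotransferase, was 1.87-fold higher. The limma adjusted p of these 3 genes ran from 0.0082 to 0.026, and all 3 were called after each of the other scalings.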
